A study of Homo sapiens with 6 samples.

Results

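The genes described here are 10 members of the ATF4 branch of the integrated stress response, ATF3, ATF4, ATF5, DDIT3, TRIB3, CHAC1, ASNS, SESN2, PPP1R15A and VLDLR. They were chosen by symbol, and all 10 were found among the 24580 rows of the deposited table. Their messenger RNA was read by sequencing RNA of LoVo cells, an established line of human colorectal cancer carried as wildtype, and of LoVo-HM cells, which the labels call a high-metastatic subline of that line. Each line had 3 libraries of untreated cells, 6 in all. Nothing in the labels tells how the subline was obtained, whether it is a clone or a pool, or whether the 3 libraries of a line came from separate cultures, so that p-values measure only the spread between these libraries.

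In the integrated stress response, kinases that sense unfolded protein, amino acid shortage, heme shortage or double-stranded RNA phosphorylate the alpha subunit of the initiation factor eIF2. General translation then slows, while translation of a few messages rises, among them that of ATF4, a transcription factor of the basic leucine zipper (bZIP) family. ATF4 switches on genes for amino acid supply, redox balance and, under lasting stress, cell death, and one of its downstream genes, PPP1R15A, encodes the phosphatase subunit GADD34, which reverses the phosphorylation. Because ATF4 is set largely by translation, its messenger level is only part of its control, and neither eIF2 phosphorylation nor protein was measured in these libraries.

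Most of the response differed between the lines by less than the test could call. PPP1R15A was the clearest exception, 1.5 times as high in LoVo-HM as in LoVo, and ATF5 was 1.22 times as high. ATF4 itself, ATF3, DDIT3, TRIB3, CHAC1, ASNS and SESN2 did not pass the test, and VLDLR was close to 0 FPKM in every library. Levels are FPKM, read fragments scaled by transcript length and by the mapped fragments of the library, and are given as mean ± SD with n = 3 libraries per line. Differences subtract LoVo from LoVo-HM in log2(FPKM + 1) units and carry their SE, with p-values from limma adjusted by Benjamini-Hochberg over 14487 tested genes.

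ATF4 binds, with a partner of the C/EBP family, a composite element known as CARE, and its core can be written TGATGNAA. The cyclic AMP response element (CRE), bound by bZIP factors, is TGACGTCA. Both were searched on either strand in RefSeq promoter windows of GRCh38.p14, which run from 250 bases before to 50 after a gene's start. All 10 genes matched the table, with 18 windows between them. The CARE core was found in 3 of these windows, against 3.62% of all 35116 windows, and the CRE in 1, against 1.85%. The 4 sites are shown because they are the only matches in the windows of the 10 genes, and 1 of them belongs to the gene with the clearest change. Each line gives 30 bases on the gene's strand, 5′ to 3′, with the matching letters in capitals. The ATF3 site lies at chr1:212565205-212565234, the ASNS site at chr7:97872458-97872487 on the minus strand, the CHAC1 site at chr15:40953251-40953280 and the PPP1R15A site at chr19:48872352-48872381.
ATF3: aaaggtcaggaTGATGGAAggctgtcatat
ASNS: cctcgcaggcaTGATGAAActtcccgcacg
CHAC1: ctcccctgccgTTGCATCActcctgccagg
PPP1R15A: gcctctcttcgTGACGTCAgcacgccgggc

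The CHAC1 core reads on the opposite strand, the CRE reads the same on both strands, and no site of one motif overlapped a site of the other. The cores begin 191 bases before the start in ATF3, 209 in CHAC1 and 68 in ASNS. By GENCODE 29 the ASNS and CHAC1 sites lie inside an exon of a transcript that begins farther upstream. The PPP1R15A site begins 58 bases before the RefSeq start. The stretch around it (chr19:48872171-48872390, plus strand, 220 bases, no annotated exon) follows with the CRE in capitals, as the promoter of the member that rose most.
PPP1R15A upstream: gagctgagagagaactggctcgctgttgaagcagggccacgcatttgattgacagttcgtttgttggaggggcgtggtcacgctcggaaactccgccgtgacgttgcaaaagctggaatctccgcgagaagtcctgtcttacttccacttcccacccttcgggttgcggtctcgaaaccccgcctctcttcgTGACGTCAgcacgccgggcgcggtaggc
These matches are descriptions of letters, and binding was not measured. The 3 genes with the CARE core in the window, ATF3, ASNS and CHAC1, did not pass the test. Neither did ATF4, DDIT3, TRIB3 and SESN2, which had no match. Sequence outside the windows was not searched, so a gene without a match may carry either motif elsewhere.

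Summed FPKM lay between 434108 and 439082 for LoVo and between 424624 and 428265 for LoVo-HM. Every LoVo-HM total was thus slightly below every LoVo total. Read counts are unknown, so no counting intervals are given. Of 12 colorectal epithelial markers, 7 were high enough to test and 5 were not. EPCAM was at 128 ± 1.99 FPKM in LoVo and 51.7 ± 2.60 in LoVo-HM, and CDX2 at 8.39 ± 0.129 and 14.7 ± 0.960. KRT20, 1 of the 7, was listed at 0 throughout LoVo and was high enough only through LoVo-HM (2.92 ± 0.475 FPKM). VIL1, CDX1 and GPA33 were listed at 0 in every library. Markers of other cell types were low: 1 of 7 fibroblast markers (COL1A1, 5.62 ± 0.801 and 4.75 ± 0.436 FPKM), 1 of 6 immune markers (CD68, named after its value was seen, 3.44 ± 0.0379 and 2.55 ± 0.265 FPKM) and 0 of 4 endothelial markers reached the minimum for testing. Of all 14487 tested genes, 44.9% passed the threshold of an adjusted p under 0.05.

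**Figure D1:**
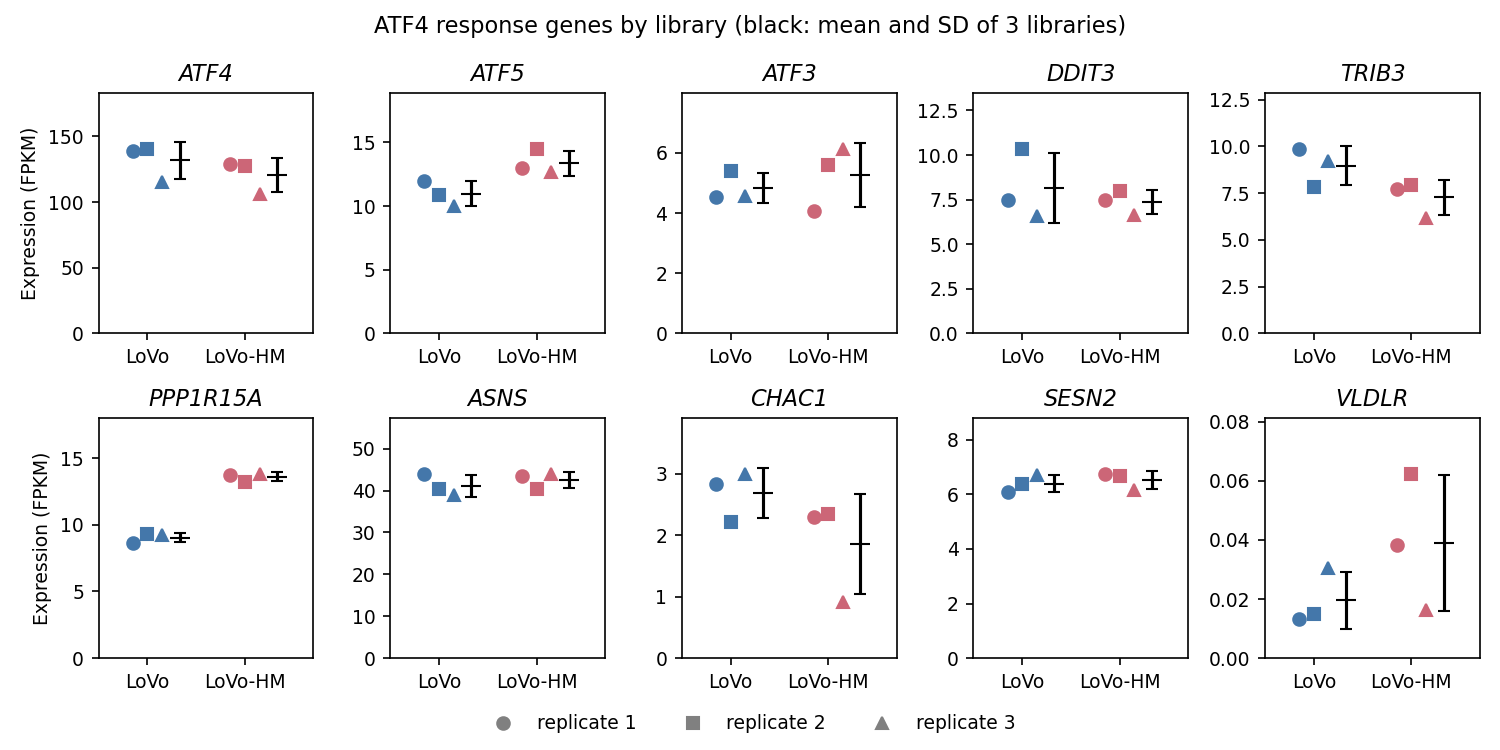
Expression in FPKM (vertical axes, each from 0 on its own scale) of the 10 genes in the 3 LoVo and 3 LoVo-HM libraries; the symbols mark replicate numbers and the black bars the mean and SD of 3 libraries. PPP1R15A lies between 8.65 and 9.28 FPKM in LoVo and between 13.2 and 13.8 in LoVo-HM, while the points of the 2 lines overlap for all genes shown except PPP1R15A and ATF5.

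Of the 9 members tested, 2 rose in LoVo-HM, 0 fell and 7 did not pass, a called share of 22.2% beside 44.9% of all tested genes. The 2 that rose were also the only tested members whose libraries did not overlap between the lines, where 55% of all tested genes did not overlap. None of the 9 changed at least 2-fold, which 6.56% of all tested genes did with an adjusted p under the threshold. The median difference of the 9 was 0.025, beside 0.0027 for all tested genes. With 9 genes chosen by name these shares are descriptions of the set and carry no test.

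The factor at the head of the branch is ATF4 (ENSG00000128272, chromosome 22, 39519695 to 39522685). It had the highest level of the 10 genes in both lines. LoVo libraries held 139, 140 and 116 FPKM and LoVo-HM libraries 129, 127 and 106 FPKM. The ranges overlapped, and in each line the library numbered 3 was the lowest. The mean was 132 ± 14.0 FPKM for LoVo against 121 ± 12.8 for LoVo-HM, a difference of -0.13 ± 0.095 (limma adjusted p = 0.318, 95% interval -0.34 to 0.092). GENCODE 29 names 4 ATF4 pseudogenes, so some reads may have been split between near-identical copies.

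ATF5 (ENSG00000169136, chromosome 19, 49928702 to 49933935), a related bZIP factor whose message is also translated under eIF2 phosphorylation and which acts in the mitochondrial stress response, was at 12.0, 10.9 and 10.05 FPKM in LoVo and at 13.0, 14.5 and 12.7 FPKM in LoVo-HM. Every LoVo-HM library was above every LoVo library, though the nearest were 12.0 and 12.7 FPKM. The mean rose from 11.0 ± 0.974 to 13.4 ± 0.981 FPKM (0.27 ± 0.081, limma adjusted p = 0.0258). This call did not hold in every fit with 1 library left out. It was lost without LoVo replicate 2 (adjusted p = 0.0686), LoVo replicate 3 (0.0836), LoVo-HM replicate 1 (0.0506) or LoVo-HM replicate 2 (0.0818). The difference was 0.21 to 0.29 in these 4 fits and stayed positive in all 16 alternative fits. In GENCODE 29 the exons of ATF5 overlap those of IL4I1 and NUP62 on the opposite strand, and the strand setting of the counting is not given in the sources used here.

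ATF3 (ENSG00000162772, chromosome 1, 212565334 to 212620777), a stress-induced bZIP factor, held 4.53, 5.40 and 4.55 FPKM in LoVo and 4.08, 5.60 and 6.13 FPKM in LoVo-HM. The LoVo-HM libraries held both the lowest and the highest of the 6 values. Its means were 4.83 ± 0.496 and 5.27 ± 1.07 FPKM, a difference of 0.095 ± 0.131 (limma adjusted p = 0.588).

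DDIT3 (ENSG00000175197, chromosome 12, 57516588 to 57521737) encodes CHOP, the factor that carries the response toward cell death. Its levels were 7.51, 10.3 and 6.59 FPKM in LoVo and 7.49, 7.99 and 6.64 FPKM in LoVo-HM. The LoVo-HM values all lay within the LoVo range, which was widened by LoVo replicate 2. The means were 8.15 ± 1.96 and 7.38 ± 0.683 FPKM (-0.11 ± 0.141, limma adjusted p = 0.56). Without LoVo replicate 2 the difference had the opposite sign, 0.057 (adjusted p = 0.688). Exons of MARS and MBD6 on the opposite strand overlap DDIT3, which makes its level uncertain if the counting ignored strand. Exons of AC022506.1 on the same strand overlap it too, and a strand setting would not separate those reads.

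TRIB3 (ENSG00000101255, chromosome 20, 362835 to 397559), a pseudokinase induced by ATF4 and CHOP that in turn holds back ATF4, was at 9.87, 7.83 and 9.20 FPKM in LoVo and at 7.74, 7.91 and 6.18 FPKM in LoVo-HM. The ranges overlapped through LoVo replicate 2, the lowest of its line. The means were 8.97 ± 1.04 and 7.28 ± 0.952 FPKM, and the difference of -0.27 ± 0.109 did not pass after adjustment (unadjusted p = 0.0372, limma adjusted p = 0.075). Without LoVo replicate 2 it was -0.35 and passed (adjusted p = 0.0389).

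PPP1R15A (ENSG00000087074, chromosome 19, 48872392 to 48876057) closes the loop, since its product GADD34 directs protein phosphatase 1 to eIF2. LoVo libraries stood at 8.65, 9.28 and 9.20 FPKM, and LoVo-HM libraries at 13.7, 13.2 and 13.8 FPKM. The lines were well apart, with a gap from 9.28 to 13.2 FPKM and a coefficient of variation of 3.78% in LoVo and 2.38% in LoVo-HM, the lowest of the 10 genes in both. The mean rose from 9.04 ± 0.342 to 13.6 ± 0.324 FPKM (0.54 ± 0.059, limma adjusted p = 0.000122, 95% interval 0.40 to 0.68). The call held in all 16 alternative fits, with differences of 0.51 to 0.60 and adjusted p-values of 9.6e-05 to 0.00103. Its size was larger than that of 82.9% of all tested genes.

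PPP1R15B, the constitutive counterpart of PPP1R15A in the phosphatase, was at 17.6 ± 0.689 and 18.6 ± 0.554 FPKM in the parental line and the subline (0.082 ± 0.056, limma adjusted p = 0.265). On the FPKM scale, which is per length, the ratio of PPP1R15A to PPP1R15B was 0.512, 0.530 and 0.504 in the LoVo libraries and 0.725, 0.735 and 0.729 in the LoVo-HM libraries. By FPKM, the messenger of the inducible subunit was thus below that of the constitutive one in every library, and protein was not measured. The ratio was higher in each LoVo-HM library than in any LoVo library (exact permutation p = 0.1, two-sided, the smallest that 3 against 3 allows, 0.25 after adjustment over 5 ratios). PPP1R15A per unit of ATF4 went from 0.0693 ± 0.00915 to 0.114 ± 0.0147 without overlap (exact permutation p = 0.1, 0.25 after adjustment). The other ratios computed overlapped between the lines: DDIT3 to ATF4 was 0.0616 ± 0.0106 and 0.0612 ± 0.00261, ASNS to ATF4 0.313 ± 0.0245 and 0.356 ± 0.0508, and TRIB3 to DDIT3 1.16 ± 0.348 and 0.985 ± 0.0510 (exact permutation p = 1, 0.2 and 0.5).

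**Figure D2:**
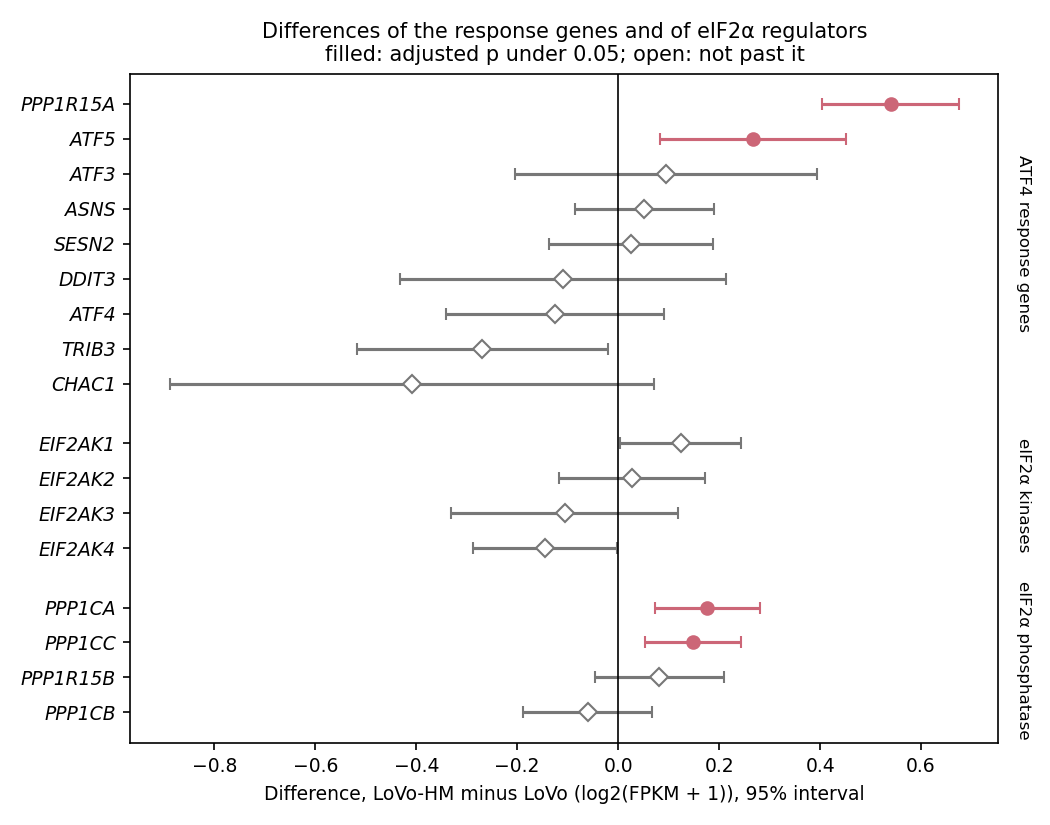
Difference between LoVo-HM and LoVo on the log2(FPKM + 1) scale (horizontal axis) with its 95% interval for the 9 tested response genes, the 4 eIF2 alpha kinases and the 4 phosphatase genes; filled points passed an adjusted p of 0.05. PPP1R15A stands apart at 0.54, ATF5 follows at 0.27, and the intervals of CHAC1, DDIT3 and ATF3 are the widest.

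Among the effector genes, ASNS (ENSG00000070669, chromosome 7, 97852118 to 97872542), which makes asparagine and is a standard readout of amino acid shortage, was at 44.0, 40.4 and 38.8 FPKM in LoVo and at 43.5, 40.4 and 43.8 FPKM in LoVo-HM. The values of the lines were interleaved. The means of 41.1 ± 2.67 and 42.6 ± 1.90 FPKM gave a difference of 0.052 ± 0.060 (limma adjusted p = 0.519), and its 95% interval of -0.086 to 0.19 was among the narrowest of the set. GENCODE 29 names 4 ASNS pseudogenes, which could share reads with it, and exons of AC079781.5 on the same strand overlap those of ASNS.

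SESN2 (ENSG00000130766, chromosome 1, 28259527 to 28282491), which encodes the leucine sensor sestrin 2 that restrains mTORC1 signalling, was at 6.10, 6.37 and 6.71 FPKM in LoVo and at 6.76, 6.66 and 6.15 FPKM in LoVo-HM. No line was higher, and the difference was 0.025 ± 0.071 (limma adjusted p = 0.795, 95% interval -0.14 to 0.19). Only 6.34% of tested genes had a smaller difference.

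CHAC1 (ENSG00000128965, chromosome 15, 40952962 to 40956519), an enzyme that breaks down glutathione, was at 2.83, 2.22 and 3.00 FPKM in LoVo and at 2.30, 2.34 and 0.914 FPKM in LoVo-HM. A single library, LoVo-HM replicate 3, lay far below the others of its line and the other LoVo-HM libraries fell within the LoVo range. The means were 2.68 ± 0.411 and 1.85 ± 0.813 FPKM, a difference of -0.41 ± 0.210 (limma adjusted p = 0.147, 95% interval -0.89 to 0.071). Without LoVo-HM replicate 3 it was -0.14 (adjusted p = 0.379).

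VLDLR (ENSG00000147852, chromosome 9, 2621834 to 2660053), the very low density lipoprotein receptor, was below the minimum of 0.5 FPKM for testing. Its values were 0.0132, 0.0149 and 0.0307 FPKM in LoVo and 0.0383, 0.0624 and 0.0164 FPKM in LoVo-HM. The ranges overlapped at a level close to 0, and no fold is given. The antisense gene VLDLR-AS1 overlaps its exons.

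By level, both lines placed ATF4 first and ASNS second, and SESN2, ATF3, CHAC1 and VLDLR seventh to last in that order. In LoVo the libraries of PPP1R15A, TRIB3, DDIT3 and SESN2 overlapped from each neighbour to the next, so that their order is not resolved. ATF5 was above PPP1R15A there, at no less than 10.05 against no more than 9.28 FPKM. In LoVo-HM the mean of PPP1R15A was above that of ATF5, but their libraries overlapped, as did those of DDIT3 with TRIB3 and of TRIB3 with SESN2. These are orders of FPKM, which divides by transcript length.

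LoVo-HM replicate 3 was the lowest library of its line for 6 of the 9 tested members (ATF4, ATF5, DDIT3, TRIB3, CHAC1 and SESN2), where it was the lowest for 36.1% of all tested genes. The deviation from the line's mean, averaged over the 9 members, was -0.10 log2 units in that library and 0.077 in LoVo-HM replicate 2. In LoVo no library was lowest for more than 4 of the 9. Without LoVo-HM replicate 3, the same 2 members passed the threshold and the differences of ATF4 and TRIB3 were -0.035 and -0.17 (adjusted p = 0.772 and 0.211).

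**Figure D3:**
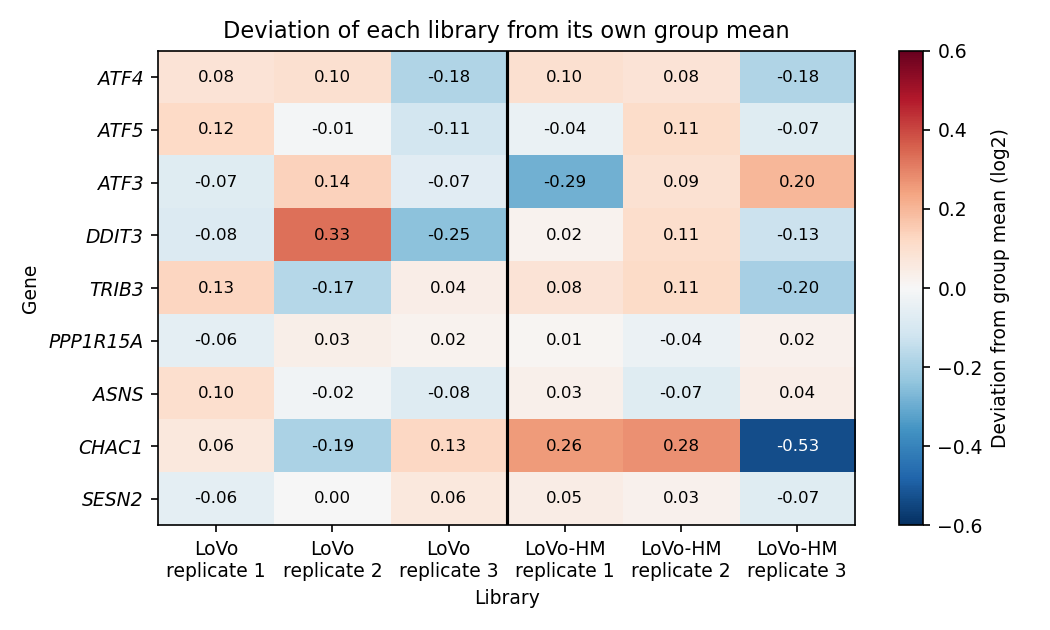
Deviation of each library (columns) from the mean of its own line, in log2(FPKM + 1) units, for the 9 tested response genes (rows); red is above and blue below the line's mean. The strongest deviation is that of CHAC1 in LoVo-HM replicate 3, at -0.53, and PPP1R15A varies by at most 0.057 in size.

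Around these members, the wider pathway was read from 11 lists with 107 genes, of which 103 were tested. In these lists 16 genes rose, 38 fell and 49 did not pass, a called share of 52.4% beside 44.9% of all tested genes. The sensors came first. None of the 4 eIF2 alpha kinases passed limma's test, although 2 had an unadjusted p under 0.05 and did not overlap between the lines, where 55% of all tested genes did not overlap. EIF2AK1, the heme-regulated kinase HRI, was at 48.8, 51.1 and 52.4 FPKM in LoVo libraries and at 55.5, 52.6 and 58.1 FPKM in those of LoVo-HM (0.12 ± 0.053, limma adjusted p = 0.0867), and EIF2AK4, the amino acid sensor GCN2, at 20.4 ± 1.33 and 18.3 ± 0.643 FPKM (-0.15 ± 0.062, limma adjusted p = 0.0893). EIF2AK3, the endoplasmic reticulum kinase PERK, was at 3.31 ± 0.229 and 3.02 ± 0.414 FPKM, and EIF2AK2, the double-stranded RNA kinase PKR, at 14.4 ± 0.725 and 14.7 ± 0.693 FPKM. With each library rescaled to the same total, or without LoVo-HM replicate 2, 1 of the 4 kinases passed.

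Of 5 genes that act on the kinases, 2 fell and 3 did not pass, a called share of 40% beside 44.9% of all tested genes. OMA1, the mitochondrial protease whose cleavage of DELE1 activates HRI, fell from 15.9 ± 0.986 to 9.45 ± 0.712 FPKM (-0.69 ± 0.074, limma adjusted p = 0.000103), and GCN1, the ribosome-bound co-activator of GCN2, from 45.9 ± 0.474 to 35.8 ± 1.32 FPKM (-0.35 ± 0.047). PRKRA, an activator of PKR, was at 25.0 ± 1.60 and 27.3 ± 2.97 FPKM (0.12 ± 0.082). Among the 8 subunits of eIF2 and its exchange factor eIF2B, 1 fell and 7 did not pass, a called share of 12.5%. The 1 that fell was EIF2S3, the gamma subunit of eIF2, from 98.0 ± 1.17 to 85.5 ± 2.80 FPKM (-0.20 ± 0.042). EIF2S2 was at 55.7 ± 2.10 and 58.2 ± 1.10 FPKM and EIF2B1 at 26.4 ± 1.61 and 28.6 ± 1.57 FPKM. In the phosphatase list, the catalytic subunits PPP1CA (123 ± 3.24 to 139 ± 6.24 FPKM, 0.18 ± 0.046) and PPP1CC (136 ± 3.58 to 150 ± 4.67 FPKM, 0.15 ± 0.042) rose and the other 2 genes did not pass, a called share of 50%. Both small rises were lost without a variance trend, where 0 of 4 genes passed. With quantile normalization, without LoVo replicate 1 or without LoVo-HM replicate 1, 1 of 4 passed.

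bZIP factors that can pair with or bind beside ATF4 changed in both directions, 4 of 12 higher and 4 lower, beside 21.8% higher and 23.1% lower of all tested genes. JUNB, an AP-1 subunit, fell from 42.4 ± 1.57 to 16.2 ± 1.96 FPKM (-1.34 ± 0.081) and CEBPD from 4.75 ± 0.367 to 1.10 ± 0.429 FPKM (-1.48 ± 0.149), and BATF, another AP-1 family member, was listed at 0 throughout LoVo and reached 0.943, 1.31 and 1.58 FPKM in the LoVo-HM libraries. BATF, counted among the 4 higher, met the minimum mean of 0.5 FPKM only through LoVo-HM, so its call is not independent of that filter. With a minimum mean of 2 FPKM, or without LoVo-HM replicate 3, 6 genes of this list passed, against 8 in the main fit. CEBPG, a partner of ATF4 at the CARE and named after its value was seen, did not pass, at 15.0 ± 0.707 and 14.8 ± 1.03 FPKM (-0.019 ± 0.068, limma adjusted p = 0.839). Of the other C/EBP genes listed, CEBPA and CEBPB fell like CEBPD and were also named after their values were seen. CEBPA went from 9.66 ± 0.421 to 8.21 ± 0.664 FPKM (-0.21 ± 0.074, limma adjusted p = 0.0447). CEBPB went from 13.1 ± 0.448 to 8.91 ± 1.25 FPKM (-0.52 ± 0.091, limma adjusted p = 0.00188).

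Other targets attributed to ATF4 did not share one direction. Of 9 tested amino acid transporters 5 fell and 2 rose (median -0.42), where 23.1% of all tested genes fell and 21.8% rose. The cationic amino acid transporter SLC7A1 fell from 67.5 ± 1.64 to 18.6 ± 0.496 FPKM (-1.80 ± 0.047, limma adjusted p = 1.38e-08) and the large neutral amino acid transporter SLC7A5 from 252 ± 7.66 to 94.2 ± 3.99 FPKM (-1.41 ± 0.045), whereas SLC38A2, which takes up small neutral amino acids, rose from 63.6 ± 3.95 to 139 ± 11.5 FPKM (1.11 ± 0.069). In the list of amino acid and one-carbon enzymes 3 of 11 rose and 2 fell (median -0.026). Their called share of 45.5% was close to the 44.9% of all tested genes. CTH, which makes cysteine from cystathionine, was at 10.9, 10.6 and 10.9 FPKM in LoVo and at 85.7, 83.1 and 95.6 FPKM in LoVo-HM, 8.16 times as high on average (2.91 ± 0.061, limma adjusted p = 3.9e-09). PSAT1, of serine synthesis, rose by a smaller amount (63.0 ± 1.18 to 92.7 ± 2.36 FPKM, 0.55 ± 0.042), and the mitochondrial folate enzyme ALDH1L2 fell from 4.90 ± 0.111 to 1.248 ± 0.242 FPKM (-1.40 ± 0.0999).

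Aminoacyl-tRNA synthetases, which load amino acids onto transfer RNAs, moved little: 1 of 12 rose, 3 fell and 8 did not pass. Their called share was 33.3%, beside 44.9% of all tested genes, and all 12 differences lay between -0.25 and 0.29. YARS rose from 35.1 ± 0.471 to 43.3 ± 0.472 FPKM (0.29 ± 0.043), NARS fell from 82.3 ± 1.20 to 70.0 ± 1.08 FPKM (-0.23 ± 0.039) and AARS from 50.1 ± 1.52 to 42.0 ± 0.545 FPKM (-0.25 ± 0.045). Of 12 tested stress and growth targets 2 rose and 5 fell (median -0.10), a called share of 58.3% beside 44.9%. The autophagy gene GABARAPL1 fell from 27.0 ± 0.792 to 10.4 ± 0.695 FPKM (-1.29 ± 0.063) and DDIT4, an inhibitor of mTORC1, from 38.3 ± 2.84 to 22.5 ± 1.16 FPKM (-0.74 ± 0.066), while GDF15, a secreted stress hormone, rose from 3.57 ± 0.887 to 7.62 ± 0.773 FPKM (0.93 ± 0.137). Genes reported downstream of CHOP went both ways, with 2 of 7 higher and 3 lower, a called share of 71.4% beside 44.9%. The 3 that fell had the smallest p in limma's test and are named here, and the 2 that rose are not. The endoplasmic reticulum oxidase ERO1A fell from 28.5 ± 1.20 to 17.0 ± 0.619 FPKM (-0.71 ± 0.056), and the death receptors TNFRSF10A and TNFRSF10B fell by 0.50 and 0.35 on the log2 scale.

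The other arms of the unfolded protein response, which run through ATF6 and IRE1 rather than eIF2, changed in 1 direction where they changed. Of 19 genes 13 fell, 0 rose and 6 did not pass (median -0.35), beside 23.1% of all tested genes lower. XBP1, the factor spliced by IRE1, fell to 18.9 ± 1.33 FPKM from 37.6 ± 1.71 (-0.96 ± 0.065, limma adjusted p = 5.85e-06). The chaperones HSPA5 (BiP) and HSP90B1 were lower as well, at 192 ± 5.76 against 132 ± 8.08 FPKM (-0.54 ± 0.052) and 299 ± 6.25 against 213 ± 15.3 FPKM (-0.49 ± 0.054). Whether this list differs from the ATF4 members was not tested.

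**Figure D4:**
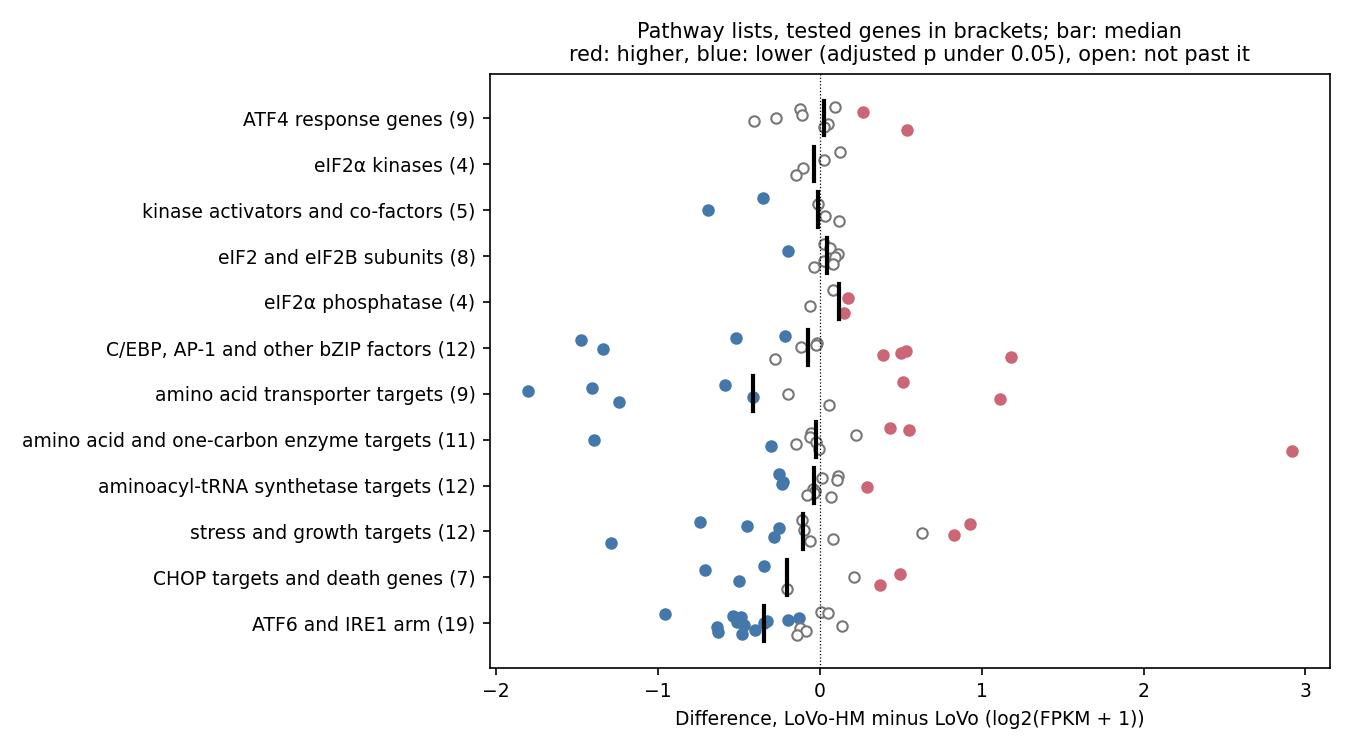
Difference between LoVo-HM and LoVo on the log2(FPKM + 1) scale (horizontal axis) of every tested gene in the ATF4 response set and the 11 pathway lists (rows), with the number of tested genes in brackets and the median as a black bar. The ATF4 response genes lie between -0.41 and 0.54, the amino acid transporters between -1.80 and 1.11, and 13 of the 19 genes of the ATF6 and IRE1 arm are marked as lower.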

How the data were processed

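The authors deposited FPKM values in 1 table with a column for each of the 6 libraries. RNA was extracted with Trizol and made into libraries with a TruSeq RNA kit, per the labels' protocols, and reads were placed on GRCh38 according to the submitters' processing notes. Which aligner, counter, annotation and strand setting were used, and how deep the libraries were, is not given in the sources used here. Low values (below 0.3 FPKM, 1554 genes) showed no steps worth 1 read, the commonest bin of 0.05 log2 units holding 3.35% of ratios.

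Values entered as log2(FPKM + 1), for the 14487 genes whose mean reached 0.5 FPKM. The lines were compared with limma (version 3.58.1, R version 4.3.3), letting the variance follow intensity, two-sided, at an adjusted p under 0.05. On simulated data with 14487 genes and 200 changes, changes of 0.25 log2 units were found in 8% of cases, those of 0.5 in 64%, those of 1 in 98% and those of 2 in 100%, and 4.26% of calls were false. Far more genes passed in the real comparison, which loosens the adjusted threshold, so these shares do not carry over to it. Ratios of genes within a library were compared by exact permutation.

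The members, the lists and the tests were chosen with earlier results of these data known. The text names all members, the 4 kinases, PPP1R15B, the 3 genes with the smallest p in each pathway list and 4 markers. CEBPA, CEBPB, CEBPG and the markers CD68, KRT20, CDX1 and GPA33 were named after their values were seen. Positions and overlaps are from GENCODE 29, matched by Ensembl identifier, and promoter sequences from RefSeq. Alternatives were pseudocounts of 0.1 and 0.5, no filter, a minimum mean of 2 FPKM, 3 scalings (equal totals, median ratio, quantile), 2 variance models, a replicate block and leaving out each library.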

Additional observations from a re-analysis of the deposited data

How the results depend on the processing

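The rise of PPP1R15A held in all 16 alternative fits. The number of members past the threshold was 1 to 2 when single libraries were left out, since ATF5 was lost in 4 of these fits, and 2 in the others except the fit with the replicate block, where it was 3. In 1 of the leave-one-out fits that lost ATF5, TRIB3 passed in its place. Same-numbered libraries did not deviate together (correlations of -0.0070, 0.022 and 0.026 over 14487 genes), so the numbers were not taken as pairs. With the replicate block ATF4 passed (-0.13, adjusted p = 0.0315), and 6459 genes passed in all against 6508 without it. The listed pathway genes past the threshold numbered 54, and 50 to 58 over all alternatives. Of all tested genes, 3161 were higher and 3347 lower in the main fit, and 3216 and 3310 with median-ratio scaling. With equal totals the numbers were 3564 and 3062, and with quantile normalization 3651 and 2964. Which direction held more calls thus depended on the scaling. ATF3 and SESN2 each turned slightly negative in 1 fit (to -0.0057 and -0.0034) and DDIT3 positive in 1, none of them past the threshold. Unknown depth and 3 libraries a line limit what can be seen, most of all for CHAC1 and VLDLR.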
